A study of Mus musculus with 4 samples.

Results

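NB1 is the cluster of early neuroblasts that Louvain clustering of adult dentate gyrus nuclei gave in the study, and its nuclei collected at week 1 (w1) were compared with those collected at week 2 (w2). Members were all nuclei that the deposited table assigns to NB1 in these weeks, 1492 of w1 and 956 of w2, so 2448 of the 14367 nuclei of the series. The nuclei came from mice of both sexes with a tamoxifen-inducible Cre allele and the CAGfloxStop-Sun1/sfGFP reporter, 6 to 8 weeks old and on a C57Bl/6J background, which received tamoxifen in 4 injections over 2 consecutive days. Cre recombination put a green fluorescent protein on the nuclear envelope of radial glia-like cells and progenitors and of the cells born from them. Green nuclei were sorted from microdissected dentate gyri of 4 pooled mice per week, and all groups carried both alleles and received the drug. Each week was 1 library, so a difference between weeks has no replicate and no test was made. Days of processing were shared by pairs of weeks that the sources do not name, so that library, pool and week cannot be told apart.

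Neuroblasts are newborn neurons that have left the cell cycle and have not yet received excitatory synapses. In the dentate gyrus they descend from radial glia-like stem cells (RGL) through dividing neuronal progenitor cells (NPC), and become immature granule cells (GCimm1), with NB2 as a parallel neuroblast cluster. NB1 nuclei of w1 and of w2 had been given the same cluster name by their expression, but had had different lengths of time since Cre activation. The comparison therefore addresses whether nuclei of the same named stage carried the same transcripts when sampled a week apart.

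NB1 held 6364115 unique molecular identifiers (UMIs, each a counted transcript molecule) in w1 and 4087892 in w2. The median nucleus held 4064 UMIs and 2019 detected features in w1, and 4171 UMIs and 2138 features in w2. Levels are given as UMIs of a gene per 1000000 UMIs of the same nuclei (CPM), with an exact Poisson interval, and a ratio between weeks with an exact binomial interval, both at 95%. All intervals cover counting error only, and the spread between mice is not in them. The deposited cluster had no nuclei in w8 and 130 in w4, whose levels are given where they help to place a value. No barcode was shared by the NB1 nuclei of w1 and w2.

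Levels of marker genes were set beside the labelled stage. The study named its clusters by known markers on these same nuclei, with Calb2, Sox4 and Sox11 among those of neuroblasts. Their presence is therefore no independent check of the stage. Igfbpl1, a marker of immature neurons, stood at 681 CPM in w1 and 757 CPM in w2, and the calretinin gene Calb2 at 142 and 166 CPM. The transcription factor genes Sox11 and Sox4 stood at 665 and 277 CPM in w1 and at 684 and 257 CPM in w2. Prox1, the transcription factor that marks the granule cell lineage, stood at 912 and 797 CPM. Neurod1, which was on the marker list, is listed at 0 UMIs in all 14367 nuclei of the series, so that nothing can be read from it here. The proliferation genes Mki67 and Top2a were at 0.786 and 0.314 CPM in w1 and at 0.734 and 1.71 CPM in w2, and Calb1 of mature granule cells at 5.19 and 6.36 CPM. The 5 mature granule cell markers summed to 52.95 CPM in w1 and 81.0 CPM in w2, a ratio of 1.53 (1.31 to 1.79), and the 5 immature granule cell markers to 1228 and 1304 CPM. Of the 5 mature markers only 1, Camk2a, reached a mean of 20 CPM. The mature sum went from 96.8 to 66.4 CPM in NB2, but from 79.15 to 111 CPM in RGL and from 58.0 to 140 CPM in GCimm1. The summed level of the 9 vessel and leptomeninges markers was 12.1 CPM in w1 and 12.7 CPM in w2, that of 7 microglia markers 53.9 and 46.7 CPM, and that of 7 oligodendrocyte lineage markers 73.1 and 98.1 CPM. The 14 RGL and astrocyte markers summed to 1010 and 1002 CPM, mostly through the glutamate transporter genes Slc1a2 and Slc1a3, and the 7 interneuron markers to 92.9 and 115 CPM. The 9 neuroblast markers summed to 4230 CPM in w1 and 4109 CPM in w2. Their sum was 400 and 450.5 CPM in RGL, 6166 and 5829 CPM in NB2 and 5319 and 5331 CPM in GCimm1. It thus does not set NB1 apart from NB2 or GCimm1.

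A gene was called at a ratio of at least 1.5 in either direction, among the 6950 genes outside chromosomes X and Y whose mean over the weeks was at least 20 CPM. In w2, 324 genes were higher, which is 4.66% of the tested genes, and 95 were lower, which is 1.37%. These counts depended on the scaling. Scaling to the median ratio gave 197 higher and 162 lower genes, and taking each ratio against the median of its gene-length class gave 113 and 164, with more lower than higher. Male nuclei alone gave 759 and 186, and female nuclei alone 444 and 231, but fewer UMIs stand behind each sex, and the part of depth in these counts was not tested. In the plot of levels by week, most points followed the diagonal, and the median ratio of w2 over w1 was 1.07. The interval of the ratio lay between a fall and a rise of 1.5-fold for 5012 genes, 72.1% of those tested. For these genes the counting error of the pools did not reach a difference of that size. Of the 324 higher genes, 142 were past the fold in male and in female nuclei taken separately, and of the 95 lower genes 30 were.

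**Figure D1:**
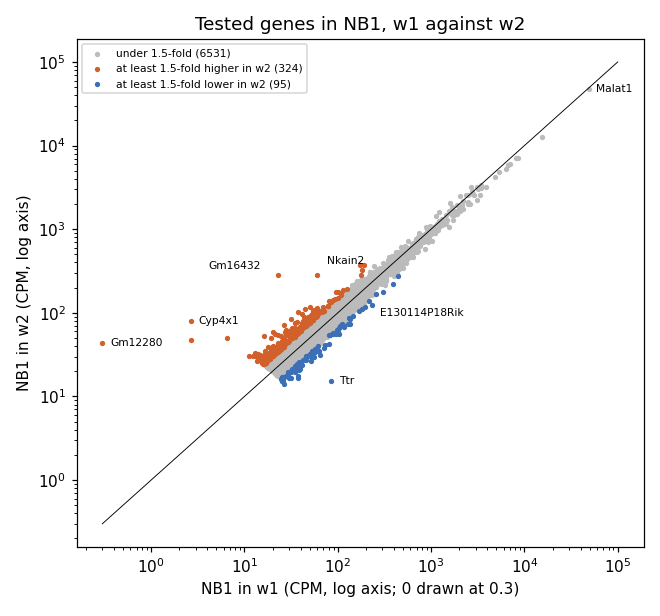
Level of each of the 6950 tested genes in NB1 of w1 (horizontal) and w2 (vertical) in CPM on log axes, with 324 genes at least 1.5-fold higher in w2 in orange, 95 lower in blue and the others in grey. A few genes, among them Gm12280, Cyp4x1 and Gm16432, lie far above the diagonal and Ttr lies far below it.

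The highest ratios belonged to Gm12280, Cyp4x1, 4930532G15Rik, Gm16432 and Nt5e, which stood at 0 to 23.1 CPM in NB1 of w1. Gm12280, an antisense-class RNA gene on chromosome 11 (11:62564477-62566383, GRCm38), had 0 UMIs in w1 and 178 in w2, a level of 43.5 CPM. Against the limit of 3 counts over the w1 nuclei, which takes the w2 count as exact, it was at least 92.4-fold higher. The exact interval used for the other genes, which is two-sided and also holds the counting error of w2, has its lower end at 74.4-fold. None of the 1492 w1 nuclei held a UMI of it, which allows a share of nuclei with a UMI of up to 0.201% by the limit of 3 and 0.247% by the exact interval, and 16.8% of w2 nuclei held one (interval 14.5 to 19.4%). Such shares count nuclei with a UMI, and a nucleus without one can still express the gene. Cyp4x1, a cytochrome P450 gene on chromosome 4, stood at 2.67 CPM in w1 and at 79.8 CPM in w2, a ratio of 29.9 (18.4 to 51.9). It was found in 1.01% of w1 nuclei and in 25.5% of w2 nuclei. The lincRNA gene 4930532G15Rik stood at 2.67 and 47.7 CPM, a ratio of 17.9 (10.9 to 31.3). Gm16432, a predicted protein-coding gene that overlaps other gene models on both strands, stood at 23.1 and 280 CPM, a ratio of 12.1 (10.2 to 14.5). It was carried by 7.44% of w1 nuclei and 70.1% of w2 nuclei. Nt5e, the ecto-nucleotidase CD73 that makes extracellular adenosine, stood at 6.44 and 50.4 CPM, a ratio of 7.82 (5.57 to 11.2).

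These levels were not particular to NB1 nuclei. In RGL, NB2 and GCimm1 of the same libraries, Cyp4x1 stood at 0.435, 1.74 and 9.16 CPM in w1 and at 106, 82.3 and 82.3 CPM in w2. Gm16432 stood at 47.0, 12.2 and 18.3 CPM in w1 and at 367, 272 and 261 CPM in w2 in the same order. Gm12280 had no UMI in any of these clusters in w1 and stood at 46.5, 45.2 and 36.7 CPM in w2. In NB1 of w4, Cyp4x1 and Gm12280 had no UMI, and 4930532G15Rik and Nt5e stood at 2.24 and 4.48 CPM. Over all nuclei of a library, Cyp4x1 stood at 2.57, 88.7, 13.3 and 12.7 CPM in w1, w2, w4 and w8. The w2 library was thus high for these genes in every cluster shown, and the part of the library in the NB1 values was not tested.

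Nkain2, a membrane protein that interacts with the sodium pump, stood at 60.5 CPM in w1 and 287 CPM in w2, a ratio of 4.74 (4.22 to 5.34). Its ratio was 3.81 in male and 7.94 in female nuclei, and nuclei with at least 1 UMI made up 10.1% in w1 and 60.3% in w2. It differed from the genes above in that its level over the whole library went on from 191 CPM in w1 and 1055 CPM in w2 to 5308 CPM in w4 and 7081 CPM in w8. In RGL, NB2 and GCimm1 it stood at 26.1, 235 and 305 CPM in w1 and at 221, 428 and 739 CPM in w2. Like the genes above, it was thus higher in w2 in every cluster shown. In NB1 of w4 it stood at 117 CPM, between the levels of w1 and w2. From w2 to w4 the levels of NB1 and of the whole library thus went opposite ways. Here and below, the level of a whole library also depends on the clusters that it holds. GCimm1, as an example, had 129 nuclei in w1 and 1933 in w2. The part of the library in the NB1 values was not tested.

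The long non-coding RNA genes Snhg11 and Meg3, both abundant in mature neurons, were also higher. Snhg11 stood at 16.2 and 53.1 CPM (ratio 3.28, interval 2.58 to 4.19) and at 143 CPM in NB1 of w4. Meg3 stood at 49.8 and 118 CPM (ratio 2.37, interval 2.05 to 2.74) and at 251 CPM in w4. Over all nuclei of w1, w2 and w4, Snhg11 stood at 22.8, 322 and 171 CPM and Meg3 at 107, 1216 and 1838 CPM, and the part of the library in the NB1 values was not tested. In RGL, Snhg11 stood at 1.74 and 23.0 CPM, and in GCimm1 at 39.7 and 262 CPM. Other gene models overlap both on the same strand. Snhg11 and Meg3 were the called members among 6 tested nuclear long non-coding RNA genes, where 4.66% of all tested genes were higher and 1.37% lower. Malat1, also of this list and the most abundant RNA of the tested genes, stood at 48620 and 47460 CPM.

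The other genes among the 12 with the highest ratios stood at 11.3 to 37.9 CPM in w1 and at 30.6 to 102 CPM in w2. They were the chaperone gene Clu (clusterin), the tubulin gene Tuba1b, the transporter genes Slc26a8 and Slc22a15 and RP23-446O11.1, an unclassified transcript. Clu stood at 21.2 and 55.8 CPM, a ratio of 2.63 (2.12 to 3.28). In RGL, NB2 and GCimm1 it stood at 139, 17.8 and 16.8 CPM in w1 and at 173, 49.1 and 42.1 CPM in w2. Tuba1b, which codes for an alpha-tubulin of microtubules, stood at 11.3 and 30.6 CPM (interval of the ratio 2.01 to 3.66). Its ratio was 3.03, 1.82 and 2.48 in RGL, NB2 and GCimm1. In the same order the ratios were 4.74, 3.92 and 2.07 for Slc26a8 and 2.98, 2.41 and 2.58 for Slc22a15. For RP23-446O11.1 they were 2.55, 2.23 and 2.71. These 4 genes were thus higher in w2 in every cluster shown, and the part of the library in the NB1 values was not tested.

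Among the lower genes Ttr, which codes for transthyretin and is a defining transcript of the choroid plexus, had the smallest ratio. It stood at 85.0 CPM in w1 and at 15.4 CPM in w2, 5.52-fold lower (4.24 to 7.28). A UMI of it was held by 26.4% of w1 nuclei and 5.23% of w2 nuclei, and RNA from outside the nuclei was not measured. The level of Ttr was 130 CPM in NB1 of w4, so that the weeks had no order in time. NB2 and GCimm1 stood at 61.6 and 79.4 CPM in w1 and at 6.64 and 13.2 CPM in w2, while RGL stood at 82.2 and 117 CPM. The levels of RGL therefore did not follow those of the neuroblasts and GCimm1. Over all nuclei of w1, w2, w4 and w8, Ttr stood at 84.4, 21.55, 61.8 and 2.83 CPM. The part of the library in the NB1 values was not tested.

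The other 11 lower genes named, those with the smallest ratios among genes lower in male and in female nuclei, had folds of 1.86 to 2.16 and levels of 13.9 to 123 CPM in w2. Adarb2, with a ratio of 0.441, stood between Ttr and these genes, but its ratio was 0.293 in male and 2.96 in female nuclei. Steap2, a metalloreductase of the cell surface, stood at 37.6 and 17.4 CPM, 2.16-fold lower (1.65 to 2.86). Fgf1, a fibroblast growth factor, stood at 31.9 and 16.6 CPM, 1.92-fold lower (1.45 to 2.56). E130114P18Rik, which lies on the strand opposite to Nfia, stood at 232 and 123 CPM, 1.88-fold lower (1.70 to 2.09), with ratios of 0.799 in male and 0.364 in female nuclei. The others were 4930467D21Rik, 4930545L23Rik, Macrod2os1, Gm16226, 1700109K24Rik, 1700111E14Rik, Gm10130 and BC034090, of which 5 are annotated as antisense genes. In RGL, NB2 and GCimm1 the ratio of Macrod2os1 was 0.491, 0.590 and 0.513. That of Fgf1 was 1.16, 0.752 and 0.635, and that of BC034090 was 0.825, 0.470 and 2.36. The part of the library in the NB1 values was not tested. The strand setting of the counting is not given in the sources used here. Of the 153 tested antisense-class genes, 21 (13.7%) were lower in w2 and 1 was higher. Of the 6597 tested protein-coding genes, 60 (0.910%) were lower and 312 were higher.

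Pseudo-time, the place of a nucleus along the inferred path from RGL to mature granule cell, differed between the weeks. Its median in NB1 was 12.9 in w1 (quartiles 11.3 and 13.8) and 13.3 in w2 (quartiles 11.8 and 14.3), a difference of 0.456 units. When the nuclei of both weeks were divided at the pooled quintiles, the last bin held 220 of the 1492 w1 nuclei and 270 of the 956 w2 nuclei. These are shares of 14.7% (Clopper-Pearson interval 13.0 to 16.6%) and 28.2% (25.4 to 31.2%). The share of the first bin was 21.6% (19.5 to 23.8%) in w1 and 17.6% (15.2 to 20.1%) in w2. In w4 the median was 12.6 over 130 nuclei, below that of both earlier weeks.

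The direction was not shared by the sexes, whose nuclei came from different mice of a pool. Each nucleus was called male or female by transcripts of the sex chromosomes. In w1, 710 nuclei were called male, 593 female and 189 neither, and in w2 the numbers were 304, 586 and 66. The median pseudo-time of female nuclei was 12.6 in w1 and 13.6 in w2, 1.02 units later. That of male nuclei was 13.2 in w1 and 12.9 in w2, a difference of -0.31 units. The last bin held 5.56% of female nuclei in w1 (3.86 to 7.73%) and 34.6% in w2 (30.8 to 38.6%). For male nuclei these shares were 20.1% (17.3 to 23.3%) and 17.4% (13.3 to 22.2%), and their intervals overlapped. The later median of w2 was thus that of female nuclei, which made up 39.7% of NB1 in w1 and 61.3% in w2.

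**Figure D2:**
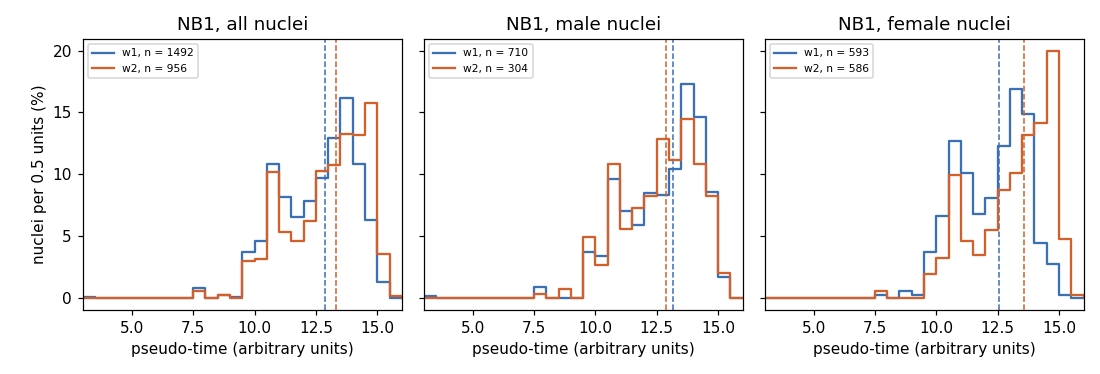
Share of NB1 nuclei (percent) in steps of 0.5 units of pseudo-time for all, male and female nuclei of w1 (blue) and w2 (orange), with medians as dashed lines. The w2 median is later by 0.456 units over all nuclei and by 1.02 units in female nuclei, and earlier in male nuclei, at 12.9 against 13.2.

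To compare nuclei of the same stage, levels were averaged over the 5 bins with equal weight in both weeks. Pseudo-time came from the same expression values, so the matching is no independent control of the stage. Where the matching was made within a sex, the last bin of female w1 nuclei held only 33 of 593 nuclei at equal weight. At this matched pseudo-time 312 genes were higher in w2 (4.49%) and 92 lower (1.32%). Of the 324 genes higher without matching, 284 remained past the fold, and of the 95 lower genes 75 did. The 6 highest ratios at matched pseudo-time belonged to Gm12280, Cyp4x1, 4930532G15Rik, Gm16432, Nt5e and Nkain2, which had led without it. Among genes lower in both sexes the 6 lowest belonged to Ttr, Steap2, Macrod2os1, 1700111E14Rik, Fgf1 and 1700109K24Rik. Cyp4x1 stood between 0.7 and 6.5 CPM in the 5 bins of w1 and between 69.0 and 120 CPM in those of w2. The w1 and w2 ranges of this gene did not overlap.

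Matching of the stage moved genes with a steep course along NB1 in both directions. Since pseudo-time came from the same expression values, such a move was partly fixed in advance for genes that vary along it. Eomes, the transcription factor of intermediate progenitors, stood at 39.8 CPM in w1 and 27.6 CPM in w2, a ratio of 0.695 that became 0.830 when matched. The ratio of Eomes was 1.32 in male and 0.383 in female nuclei. Its level was 141 CPM in the first bin of w1 and 103 CPM in that of w2, and it had 0 UMIs in the last bin of w1 and 1 UMI in that of w2. The gene of the RNA-binding protein Elavl4 (HuD) stood at 164 and 113 CPM, a ratio of 0.688 that became 0.808, with 0.882 in male and 0.574 in female nuclei. The teneurin gene Tenm2, a synaptic adhesion molecule, stood at 1226 and 1596 CPM, a ratio of 1.30 that became 1.01. In the last bin Tenm2 stood at 3372 CPM in w1 and 3355 CPM in w2. Epha7, a receptor of ephrins in axon guidance, stood at 221 and 310 CPM, a ratio of 1.40 that became 1.16. The ratios in male and female nuclei were 0.809 and 2.38 for Tenm2 and 0.779 and 2.04 for Epha7. For Slit3, a ligand of Robo receptors that went from 24.6 to 1354 CPM over the bins of w1, the ratio went from 0.895 to 0.719 when matched.

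Other genes remained higher in w2 when matched, though the ratio of Chd5 also moved. Chd5, a chromatin remodeller of maturing neurons, stood at 34.6 CPM in w1 and 74.9 CPM in w2, a ratio of 2.17 (1.82 to 2.59) and of 1.87 when matched. Its level went from 8.93 to 65.9 CPM over the bins of w1 and from 20.4 to 123 CPM over those of w2. The ratio of Chd5 was 2.39 in male and 2.02 in female nuclei, and within matched stages 2.495 and 1.27. In RGL, NB2 and GCimm1 its unmatched ratio was 1.68, 1.40 and 1.45. Stmn1, the microtubule destabiliser stathmin of young neurons, stood at 155 and 228 CPM, a ratio of 1.46 (1.34 to 1.60), below the fold. In every bin it was higher in w2, from 204 to 253 CPM against 138 to 173 CPM. Marcksl1, which binds actin at the membrane of growing neurites, stood at 17.3 and 32.1 CPM, a ratio of 1.85 (1.43 to 2.41) and of 1.83 when matched.

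**Figure D3:**
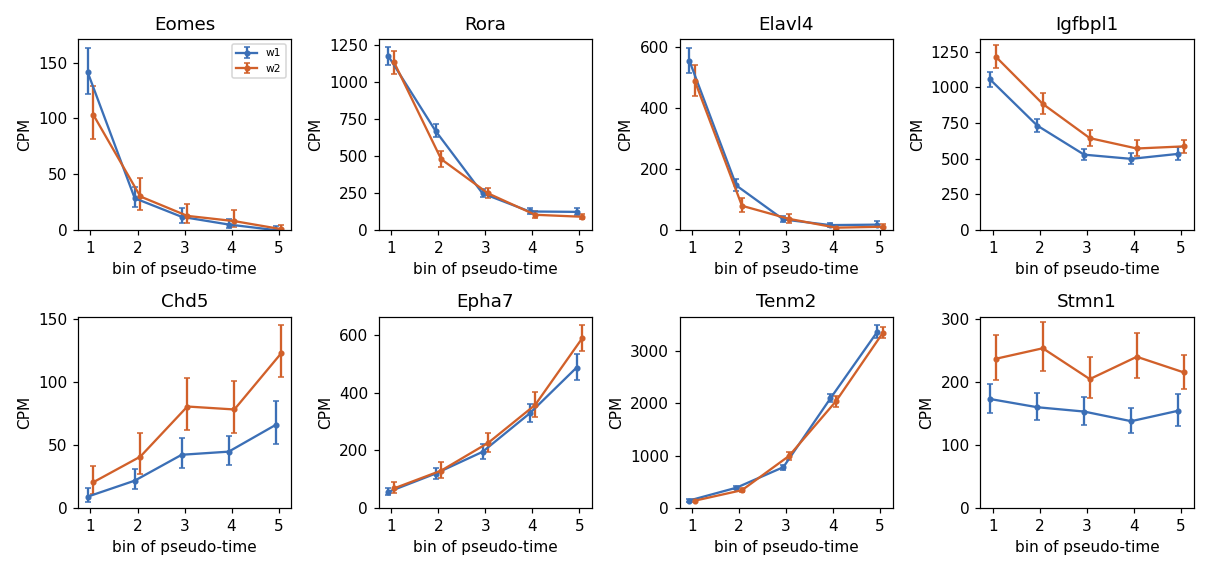
Level of 8 genes in NB1 (CPM) in 5 successive bins of pseudo-time in w1 (blue) and w2 (orange), with exact 95% Poisson intervals as bars. Eomes, Rora and Elavl4 go down and Epha7 and Tenm2 go up along the bins in both weeks, with a gap in the second bin for Elavl4 (146 and 79.9 CPM) and Rora (670 and 479 CPM), and Chd5 and Stmn1 have a higher level in w2 in every bin.

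Over the 9 lists of genes for neuronal functions and stages, 7 of 146 distinct tested members were higher, which is 4.79% against 4.66% of all tested genes, and 1 was lower, which is 0.685% against 1.37%. The share of higher members is near that of all genes and is no result about the lists. Of the 252 distinct members of the 17 lists that reached 20 CPM, 52 were higher, 35 of them ribosomal, and 1 was lower. Of 25 tested genes of the neuroblast and immature neuron list, 1 was higher (Marcksl1) and none lower. Their summed level was 8752 CPM in w1 and 8962 CPM in w2. None of the 4 tested genes of the NPC and cell cycle list was called, and the sum of the list stood at 533 and 511 CPM. Cdk6, a cell cycle kinase, stood at 146 and 117 CPM, a ratio of 0.801 (0.716 to 0.896), with ratios of 1.16 in male and 0.569 in female nuclei.

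A list of 19 genes holds those that the study names for the step from NB1 to GCimm1, and Camk4 and Chd5, which it names as expressed in GCimm1 and GCimm2. The study chose these genes on the same nuclei, so they are not independent evidence of a direction. Their sum was 4774 CPM in w1 and 5006 CPM in w2, a ratio of 1.05, and 2 of 19 were higher, Chd5 and Grin2a, the GluN2A subunit of NMDA receptors, against 4.66% of all tested genes. At matched pseudo-time 1 of 19 was. Grin2a stood at 85.2 and 135 CPM, a ratio of 1.59 (1.41 to 1.79) that became 1.40 when matched. The summed ratio was 0.793 in male and 1.39 in female nuclei, in the order of the pseudo-time of the sexes. Within matched stages it was 0.908 over all nuclei, 0.839 in male and 0.976 in female nuclei. The study's 10 genes for NB2 summed to 4088 and 3673 CPM, with Grin2a higher and Robo2 lower. At matched pseudo-time no member of that list was called. Without matching, its summed ratio was 0.8025 in male and 1.004 in female nuclei.

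Receptor and adhesion lists held 1 called gene or none, where 4.66% of all tested genes were higher and 1.37% lower, so that lists of this size would hold few at that rate. None of the 30 tested synaptic adhesion genes was called. The list summed to 35120 CPM in w1 and 33140 CPM in w2, a ratio of 0.850 in male and 1.05 in female nuclei. Of 14 tested glutamate receptor genes only Grin2a passed the fold, and Gria2, an AMPA receptor subunit, stood at 3160 and 3046 CPM. Of 11 tested genes of GABA receptors and chloride transporters 1 was higher, Gabra5, the alpha-5 subunit of extrasynaptic receptors. The sum of that list had a ratio of 0.894 in male and 1.31 in female nuclei. Gabra5 stood at 30.8 and 55.8 CPM, a ratio of 1.81 (1.49 to 2.20), and of 1.43 when matched. Of the 8 tested genes of the mature granule cell list 3 were higher, Grin2a, the calcium-dependent kinase gene Camk2a and Inpp4b, a phosphoinositide phosphatase, against 4.66% of all tested genes. At matched pseudo-time 2 were higher, Camk2a and Inpp4b, and 1 was lower, the adhesion gene Kirrel3 (0.668 unmatched and 0.646 matched). The unmatched ratio of Kirrel3 was 0.551 in male and 1.05 in female nuclei and 0.722 without the nuclei rich in interneuron markers (at least 10 UMIs), and 10 nuclei held 30.2% of its UMIs in w1. Camk2a stood at 24.2 and 39.4 CPM (ratio 1.63, interval 1.30 to 2.04) and Inpp4b at 126 and 191 CPM (ratio 1.52, interval 1.37 to 1.67). The sum of that list was nonetheless lower in w2, at 2234 against 2463 CPM, since its highest member Plxna4, a semaphorin co-receptor, stood at 1901 and 1526 CPM.

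Of 27 tested axon guidance genes none was higher and 1 was lower, Robo2, a receptor of the Slit repellents, against 4.66% and 1.37% of all tested genes, so that the count is no result about the list. It stood at 217 and 138 CPM, 1.57-fold lower, with a ratio of 0.716 when matched. At matched pseudo-time the ratio of Robo2 was 0.527 in male and 1.07 in female nuclei, so its direction turned. In w2, 10 nuclei held 45.6% of the Robo2 UMIs of NB1. Dcc, the netrin receptor and the highest gene of the list, stood at 6969 CPM in w1 and 6068 CPM in w2, a ratio of 0.871 (0.857 to 0.884). Dcc had a ratio of 0.737 in male and 1.05 in female nuclei. The sum of the axon guidance list was 18700 and 16520 CPM, a ratio of 0.883, with 0.780 in male and 1.02 in female nuclei.

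Some differences rested on few nuclei. Kcnip4, which modulates A-type potassium channels, was the only higher gene of 29 tested channel genes (4.66% of all tested genes were higher), at 171 and 374 CPM, a ratio of 2.18 (2.02 to 2.36). In w2, 10 nuclei held 54.7% of its UMIs, and in w1 10 nuclei held 23.9%. The share of nuclei with a Kcnip4 UMI was 21.98% in w1 (19.9 to 24.2%) and 20.4% in w2 (17.9 to 23.1%), so it did not go with the summed level. The ratio was 3.83 in male and 1.09 in female nuclei, and the widest gap lay in the first bin, at 328 CPM in w1 and 1543 CPM in w2. In the last bin the direction turned, at 58.5 CPM in w1 and 21.5 CPM in w2. It also did so in the bin before, at 102 and 68.7 CPM.

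Nrxn3, a presynaptic adhesion gene that the study names for NB2, stood at 502 and 348 CPM, a ratio of 0.693. Its UMIs were concentrated in 9 nuclei of w1 and 5 nuclei of w2 that held at least 10 UMIs of the interneuron marker list (Gad1, Gad2, Sst, Vip, Pvalb, Lhx6 and Erbb4). These nuclei held 75.2% of the Nrxn3 UMIs of NB1 in w1 and 64.4% in w2. Without them Nrxn3 stood at 126 CPM in w1 and 125 CPM in w2, a ratio of 0.992. Without these nuclei 330 genes were higher and 91 lower, with 315 of the 324 and 90 of the 95 called genes still past the fold. For 1 called gene the ratio turned, Adarb2, a gene of the ADAR family of RNA editing enzymes that marks some interneurons, which was singled out after its values were seen. It stood at 37.7 CPM in w1 and 16.6 CPM in w2, and at 3.32 and 7.62 CPM without these nuclei, a ratio of 2.29. In w1, 10 nuclei held 92.1% of the Adarb2 UMIs.

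Of the lists, that of cytosolic ribosomal proteins held the most called genes. Of 64 tested genes of cytosolic ribosomal proteins 35 were higher and none lower, against 4.66% higher over all tested genes, 39.6% of those of up to 3 kb and 19.2% of those of 3 to 10 kb. The list had a median ratio of 1.53 against 1.07 over all tested genes. The sum of the list was 2202 CPM in w1 and 3299 CPM in w2, a ratio of 1.498 that was 1.15 against the median of the gene-length class. In RGL, NB2 and GCimm1 of the same libraries the ratio of the sum was 1.63, 1.44 and 1.34. Rpl41 stood at 31.9 and 83.2 CPM, a ratio of 2.61 (2.19 to 3.12), and Rps29 at 13.0 and 33.0 CPM, a ratio of 2.53 (1.91 to 3.37). Reads of ribosomal protein genes can be shared with processed pseudogenes, and multi-mapped reads had been excluded by the authors.

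Of 13 tested respiratory chain genes 4 were higher, against 4.66% of all tested genes, 39.6% of those of up to 3 kb and 19.2% of those of 3 to 10 kb. The ratio of the sum was 1.39, or 1.12 against the median of the gene-length class. It was 1.70, 1.49 and 1.42 in RGL, NB2 and GCimm1. Cox6c, a subunit of cytochrome c oxidase, stood at 31.6 and 58.2 CPM, a ratio of 1.84 (1.52 to 2.24), and Cox5b of the same enzyme at 19.6 and 35.0 CPM. Atp5b and Atp5g1, subunits of ATP synthase, had ratios of 1.51 and 1.54. Both mitochondrial ribosomal RNA genes that were tested were higher, mt-Rnr2 at 109 and 173 CPM and mt-Rnr1 at 32.1 and 65.3 CPM. Mitochondrial transcripts lie outside the nucleus, and the 37 genes of the mitochondrial genome summed to 179 CPM in w1, 332 CPM in w2 and 188 CPM in w4. The ratio of that sum in w2 over w1 was 1.85, or 1.30 against the median of the gene-length class. It was 1.86, 1.59 and 1.52 in RGL, NB2 and GCimm1. Hspa8, the constitutive chaperone Hsc70, stood at 41.6 and 97.1 CPM, a ratio of 2.33 (1.99 to 2.74), the only called gene of 4 tested of the immediate early and heat shock list. The metallothionein gene Mt1 stood at 32.4 and 54.1 CPM, a ratio of 1.67 (1.38 to 2.03), and was the only called gene of 5 in the glucocorticoid response list. Mt1 is in the length class of up to 3 kb, of which 39.6% were higher. No circadian clock gene of 8 tested was called.

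**Figure D4:**
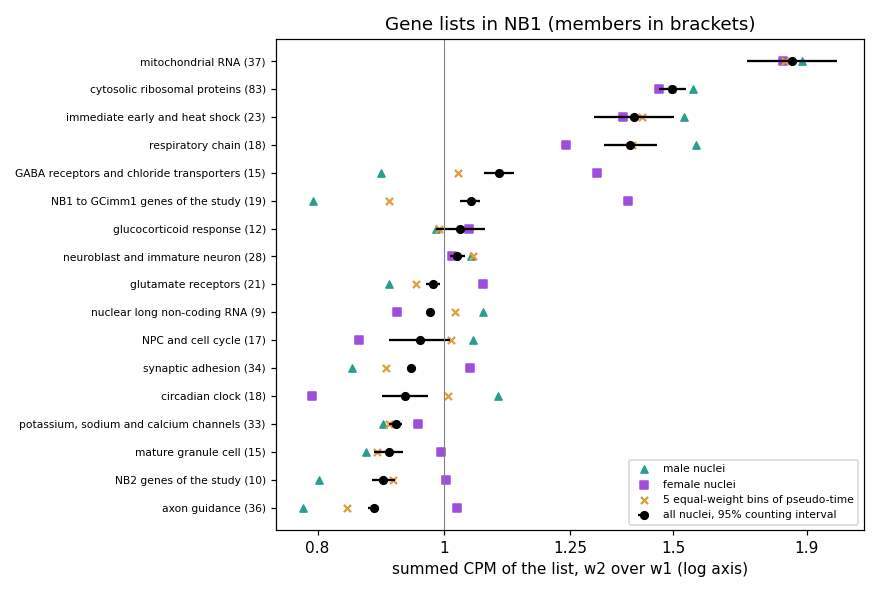
Summed CPM of each of 17 gene lists in NB1, w2 over w1 on a log axis, for all nuclei (black, bars are 95% counting intervals), male nuclei, female nuclei and matched pseudo-time. Ribosomal, mitochondrial, respiratory and heat shock lists lie above 1.2 in all 4 values, and the list for the step to GCimm1 lies at 0.793 in male and 1.39 in female nuclei.

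The ratio between weeks went with the length of the gene. Its median was 1.42 for 106 genes of up to 3 kb, 1.26 for 641 genes of 3 to 10 kb and 1.14 for 1963 genes of 10 to 30 kb. It was 1.06 for 2655 genes of 30 to 100 kb, 0.973 for 1160 genes of 100 to 300 kb and 0.929 for 425 genes of over 300 kb. The share called higher was 39.6%, 19.2%, 4.89%, 1.39%, 0.948% and 3.53% in the same order of classes, so that it was lowest in genes of 100 to 300 kb and not in the longest. The same order held in RGL, where the medians went from 1.53 in the shortest to 0.894 in the longest class, and in GCimm1, from 1.39 to 0.934. In NB2 they went from 1.37 to 0.945 in genes of 100 to 300 kb and were 0.971 in the longest. Ribosomal protein and respiratory chain genes are short, and many receptor, channel and adhesion genes are long. When each ratio was taken against the median of its length class, 113 genes were higher and 164 lower. The part of gene length in the differences of single genes was not tested.

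**Figure D5:**
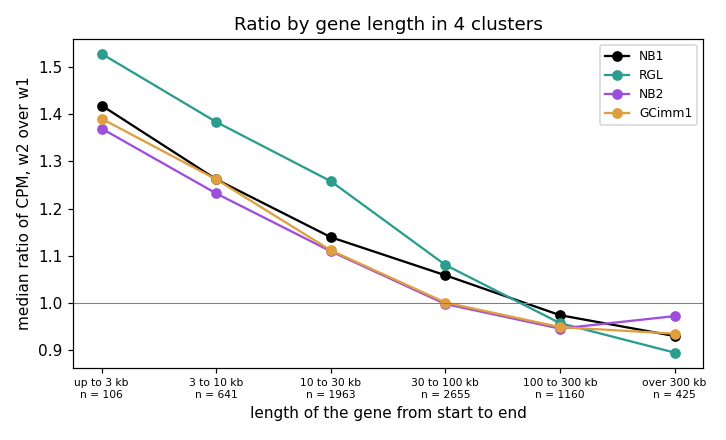
Median ratio of CPM in w2 over w1 (vertical) for 6 classes of gene length (horizontal, with the number of genes) in NB1, RGL, NB2 and GCimm1. The NB1 median goes from 1.42 in genes of up to 3 kb to 0.929 in genes of over 300 kb, and the other clusters of the same libraries lie near it.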

How the data were processed

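Nuclei were profiled with droplet single-nucleus RNA sequencing. The authors counted UMIs with STARsolo 2.7.4a on GRCm38 (mm10) over exons and introns, without multi-mapped reads. They removed doublets and low-quality nuclei, clustered the rest and fitted pseudo-time with slingshot. The deposited files hold whole UMI counts for 45706 features in each library, and a table of log2 expression, in which the authors divided counts by size factors and added 1, with the cluster and pseudo-time of each nucleus.

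Counts were summed over the NB1 nuclei of each week and scaled to 1000000. Features on X or Y, and 17 features of at least 20 CPM that GENCODE M21 does not place, were left out. The sex of a nucleus was taken from whichever was larger, its UMIs of the Y-linked genes Uty, Ddx3y and Eif2s3y or those of Tsix and Xist, and ties were left uncalled. A nucleus with UMIs of both occurred 22 times in w1 and 37 times in w2. Python 3.11.15 with numpy 2.4.6, scipy 1.17.1 and pandas 2.3.3 was used, and the calling step was tested on simulated data.

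Named were the 12 genes with the largest and the 12 with the smallest ratio past the fold and in the same direction in both sexes, the 6 and 6 at matched pseudo-time, up to 4 members and the highest member of each list, and genes that the study names for NB1 or NB2. Neurod1, Mki67, Top2a, Calb1, Slc1a2 and Slc1a3 were named as markers, and Adarb2 after its values were seen. Members, lists and rules were chosen with earlier results of these data known. Of the alternatives, 32 were listed at the start and 8 were added after the data had been seen. Some items, the driver of the Cre allele among them, are not reported here.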

Additional observations from a re-analysis of the deposited data

Results flagged for a closer look

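Several values went opposite ways in male and in female nuclei of NB1, and none of these differences was tested, since each sex of a week is part of 1 pool. Gabbr2, a subunit of the metabotropic GABA receptor, had a ratio of w2 over w1 of 0.505 in male and 1.95 in female nuclei, against 1.11 over all nuclei. Within matched pseudo-time these ratios were 0.540 and 0.918. Slit3, a repellent ligand of axons, had ratios of 0.640 and 1.96, and within matched pseudo-time 0.686 and 0.989. Ncam2, a cell adhesion gene, had ratios of 0.636 and 1.56, and within matched pseudo-time 0.657 and 1.11. Nrxn3 had ratios of 0.489 and 1.87, and without the nuclei rich in interneuron markers 0.624 and 1.97. Adarb2 had ratios of 0.293 and 2.96, and without those nuclei 4.18 and 1.65. The 19 genes of the list for GCimm1 summed to ratios of 0.793 in male and 1.39 in female nuclei. Of the 6950 tested genes, 43 were past the fold in opposite ways in the sexes, and 13 of these also within each sex at matched pseudo-time. All matched ratios of female nuclei rest on 33 w1 nuclei in the last bin. Unrelated calls in the sexes would also leave some genes opposite. Their number was not computed, so the count is no result about the sexes.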

How the results depend on the processing

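Counts of called genes depended on the threshold and scaling. Against 324 higher and 95 lower genes, a minimum of 50 CPM gave 88 and 33, no minimum 4662 and 4004, and a fold of at least 2 gave 37 and 4. Scaling to the median ratio gave 197 and 162, and the median of the gene-length class 113 and 164. The difference of mean deposited log2 expression gave 1 and 0. That setting also differs in size factors, in averaging over nuclei and in its 6253 genes. It also adds 1 to each scaled count before the log, which makes differences small for genes with few UMIs per nucleus. Few calls there are thus no sign that the differences in CPM were lacking. There were 759 and 186 called genes in male nuclei alone (761 and 187 at matched pseudo-time), and 444 and 231 in female nuclei alone (405 and 169 at matched pseudo-time). Fewer UMIs stand behind these. Thinning to 2000 UMIs per nucleus (88 shallower nuclei of w1 and 4 of w2 left out), the mean CPM per nucleus, leaving out the deepest nuclei and leaving out nuclei with UMIs of both sexes kept both counts within 1.5 times. The 404 genes past the fold at matched pseudo-time numbered 404 with 3 and with 10 bins as well, of which 373 and 382 were the same genes, and 41 at a fold of at least 2. The pseudo-time difference of 0.456 was -0.306 in male and 1.02 in female nuclei, and between 0.404 and 0.474 under the other settings. Of the list members, 52 higher and 1 lower became 30 and 5 with scaling to the median ratio, 3 lower when thinned, 13 lower in male and 9 lower in female nuclei. Of 714 ratios of named genes under alternatives 213 left the counting interval, and of 85 ratios of lists 54 did. None that was past the fold crossed 1 under thinning, either sex, matched pseudo-time, scaling or the mean per nucleus. For genes named by the size of their ratio, the same direction in both sexes was a condition of naming, so the sexes are no check on them. Among all called genes, 319 of the 324 higher and 93 of the 95 lower had the same direction in both sexes. The nuclei of both sexes are part of the summed counts behind the call and of the same libraries. This count is thus no independent check either. Robo2, at 0.636, was 1.07 in female nuclei at matched pseudo-time. Adarb2, at 0.441 and not among the named genes of these ratios, was 2.29 without the nuclei rich in interneuron markers. The cause was not tested where none is given. No paired analysis was possible because each week is 1 library. Depth limits genes below about 20 CPM, and the intervals leave out the spread between mice.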
